A study of Mus musculus with 8 samples.

Results

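Histone H3 acetylated at lysine 9 (H3K9ac) was mapped by chromatin immunoprecipitation and sequencing in mouse cerebellum, and the regions described here are those that recurred inside genes, away from gene ends. The regions were selected on the peak lists themselves. A region was kept when peaks of the lists from knock-in replicates 1 and 2 and wild type replicates 1 and 2, merged wherever they shared 1 bp, came from at least 3 of these 4 lists. It also had to overlap the body of a protein-coding gene and to touch no window of 1 kb on either side of either end of any protein-coding gene. There were 1233 such intragenic regions among 16618 merged regions on the autosomes and the X chromosome. For comparison, 5884 regions in 3 or 4 lists touched a gene-end window and 394 lay outside protein-coding genes and these windows.

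The study held 4 libraries from heterozygous knock-in mice labelled 266Q, the mouse model of spinocerebellar ataxia type 7 (SCA7), and 4 libraries from wild type littermates. All mice were C57BL/6 and 9 weeks old, an age at which the series text calls the knock-in mice symptomatic. One allele of Atxn7 in the knock-in mice carries an expanded glutamine-coding repeat, and the peak lists hold no measure of that repeat, so the genotype labels could not be checked. All libraries came from cerebellar tissue of mixed cells, so fewer cells of a type and less acetylation per cell cannot be told apart. Nothing in the labels says that replicates came from separate animals, and p-values therefore refer to a spread among libraries that may be technical only.

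The lists of knock-in replicates 1 to 4 held 10607, 11268, 5571 and 1266 peaks, and those of wild type replicates 1 to 4 held 11409, 7735, 3249 and 1571. Replicates 3 and 4 of both genotypes stood apart: their median peak widths were 132 to 148 bp, those of replicates 1 and 2 1065 to 1246 bp. They are called the short lists here, and replicates 1 and 2 the long lists. Without read counts in the lists, sequencing depth is unknown.

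H3K9ac is placed by acetyltransferases that include the GCN5 subunit of the SAGA complex, to which ataxin-7, the product of Atxn7, belongs. The mark is densest on the nucleosomes that flank active promoters, mainly on the downstream side. Many neuronal genes are long and hold further promoters inside their bodies, from which shorter transcripts start. In the cerebellum the granule cells, small glutamatergic neurons, outnumber all other cells.

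The sequences below show the CpG content in which internal transcription starts inside an intragenic region differed from those outside. Each is the 300 bases from 250 before to 50 after an annotated start, printed 5′ to 3′ on the strand of the gene, from the RefSeq promoter table of GRCm38.p6, with every CpG in capitals. Atxn7 is shown because it is the gene mutated in the knock-in mice, and Arid1a because its region was found in all 8 libraries. Cacna1c and Tlk2 each have an internal start inside a region and another that no peak of the long lists covered. Nfix is shown as an exception, a start with few CpGs inside one of the widest regions.
Atxn7, start inside a region: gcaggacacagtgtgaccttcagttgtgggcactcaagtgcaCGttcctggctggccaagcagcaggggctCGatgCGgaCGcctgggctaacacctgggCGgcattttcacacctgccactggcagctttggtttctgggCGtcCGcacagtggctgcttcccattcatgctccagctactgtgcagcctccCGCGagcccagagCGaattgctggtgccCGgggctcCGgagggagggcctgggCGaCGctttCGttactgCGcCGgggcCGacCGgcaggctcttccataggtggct
Arid1a, start inside a region: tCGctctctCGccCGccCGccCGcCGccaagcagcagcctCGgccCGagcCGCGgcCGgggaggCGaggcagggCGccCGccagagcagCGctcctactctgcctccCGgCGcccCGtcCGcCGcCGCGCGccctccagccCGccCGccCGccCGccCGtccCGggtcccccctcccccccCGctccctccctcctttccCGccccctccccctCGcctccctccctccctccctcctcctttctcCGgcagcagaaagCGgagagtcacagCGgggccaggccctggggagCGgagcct
Cacna1c, start inside a region: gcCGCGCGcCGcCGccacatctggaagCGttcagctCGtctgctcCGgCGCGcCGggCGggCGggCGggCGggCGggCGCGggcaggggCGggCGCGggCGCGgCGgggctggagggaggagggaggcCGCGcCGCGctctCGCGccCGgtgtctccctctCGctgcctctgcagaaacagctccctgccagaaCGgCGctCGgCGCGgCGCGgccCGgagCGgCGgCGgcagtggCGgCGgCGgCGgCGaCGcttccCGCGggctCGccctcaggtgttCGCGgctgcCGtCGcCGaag
Cacna1c, start without a peak: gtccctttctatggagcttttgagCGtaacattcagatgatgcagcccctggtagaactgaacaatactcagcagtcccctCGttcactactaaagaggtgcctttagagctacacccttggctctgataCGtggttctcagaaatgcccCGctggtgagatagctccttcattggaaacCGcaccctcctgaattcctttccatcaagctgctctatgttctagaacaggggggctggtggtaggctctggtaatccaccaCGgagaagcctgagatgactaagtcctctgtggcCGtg
Tlk2, start inside a region: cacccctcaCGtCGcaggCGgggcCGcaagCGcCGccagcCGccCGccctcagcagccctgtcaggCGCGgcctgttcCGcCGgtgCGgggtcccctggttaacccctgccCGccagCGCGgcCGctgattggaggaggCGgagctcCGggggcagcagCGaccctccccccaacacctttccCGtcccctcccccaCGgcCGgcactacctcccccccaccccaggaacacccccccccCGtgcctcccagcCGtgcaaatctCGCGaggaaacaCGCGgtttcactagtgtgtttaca
Tlk2, start without a peak: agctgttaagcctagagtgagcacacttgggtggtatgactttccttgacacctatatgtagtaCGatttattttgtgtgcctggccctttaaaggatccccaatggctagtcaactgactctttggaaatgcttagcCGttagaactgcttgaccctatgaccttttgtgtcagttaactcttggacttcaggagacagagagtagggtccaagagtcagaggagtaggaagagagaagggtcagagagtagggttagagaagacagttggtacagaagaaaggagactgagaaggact
Nfix, start inside a region: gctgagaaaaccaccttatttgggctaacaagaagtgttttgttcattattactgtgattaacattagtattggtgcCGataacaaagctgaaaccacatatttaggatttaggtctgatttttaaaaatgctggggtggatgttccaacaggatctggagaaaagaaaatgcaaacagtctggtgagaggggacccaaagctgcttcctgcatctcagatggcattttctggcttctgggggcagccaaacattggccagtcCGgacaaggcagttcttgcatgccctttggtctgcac

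These windows lie at chr14:14012241-14012540 (plus strand) for Atxn7 and chr4:133753936-133754235 (minus) for Arid1a. Those of Cacna1c lie at chr6:119108446-119108745 and chr6:118757925-118758224 (minus), those of Tlk2 at chr11:105181277-105181576 and chr11:105178557-105178856 (plus), and that of Nfix at chr8:84772826-84773125 (minus). The Atxn7 window held 19 CpGs and the Arid1a window 36. The Cacna1c window inside a region held 57 and the one without a peak 7, and the Tlk2 windows held 29 and 2. The Nfix window held 2 CpGs.

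Most of the intragenic regions that could be assessed lay over a transcription start annotated inside the gene. The promoter table held the host genes of 997 regions, and 592 of these, or 59.4% (exact 95% interval 56.3 to 62.4), covered such a start. Of the 592, 573 covered a start of the host gene and 19 only the start of a long non-coding RNA (lncRNA) gene. The other 405 covered no start in the table, and for 236 regions the host gene was not in the table, which leaves chromosome 18 out altogether. The share grew with the number of long lists that held a region, a number the choice of regions used. It was 6.30% of 2126 intragenic regions in 1 list, 19.3% of 602 in 2 lists, 36.2% of 354 in 3 lists and 72.2% of 643 in 4 lists. Width was not matched. The median merged width of all intragenic regions grew in the same order, from 809 to 1085, 1389 and 1828.5 bp.

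Seen from the starts, 717 of 3881 internal starts of protein-coding genes (18.5%) lay in an intragenic region, and 277 (7.14%) lay in a region found in only 1 or 2 long lists. A further 2543 lay in no peak region of the long lists, and the rest lay in regions that touch a gene-end window. Of 2790 internal lncRNA starts, 111 (3.98%) lay in an intragenic region. Starts inside a region were rich in GC and CpG. The 717 had a median of 25 CpGs in 300 bases (quartiles 16 to 33) and 65.3% GC, whereas the 2543 internal starts with no peak region had 5 CpGs (3 to 9) and 51% GC. The 5382 starts of protein-coding genes at gene ends that lay in a gene-end region had 27 CpGs and 66% GC. All 32619 promoters of the table on the autosomes and the X chromosome, called all promoters below, had 7 CpGs and 53% GC.

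The share of internal starts inside a region grew with CpG content. It was 1.98% of 1211 protein-coding starts with 0 to 4 CpGs, 6.78% of 914 with 5 to 9, 20.0% of 741 with 10 to 19, 41.6% of 548 with 20 to 29 and 54.6% of 467 with 30 or more. For lncRNA starts the shares in the same order were 0.272%, 1.60%, 7.84%, 21% and 57.8%. The order held within genes: 113 genes had internal starts both in a region and without a peak, and in 101 of them (89.4%) those in the region had more CpGs, in 10 fewer and in 2 the same number. Starts that share a gene or a region are not independent, and these shares are given as a description.

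**Figure D1:**
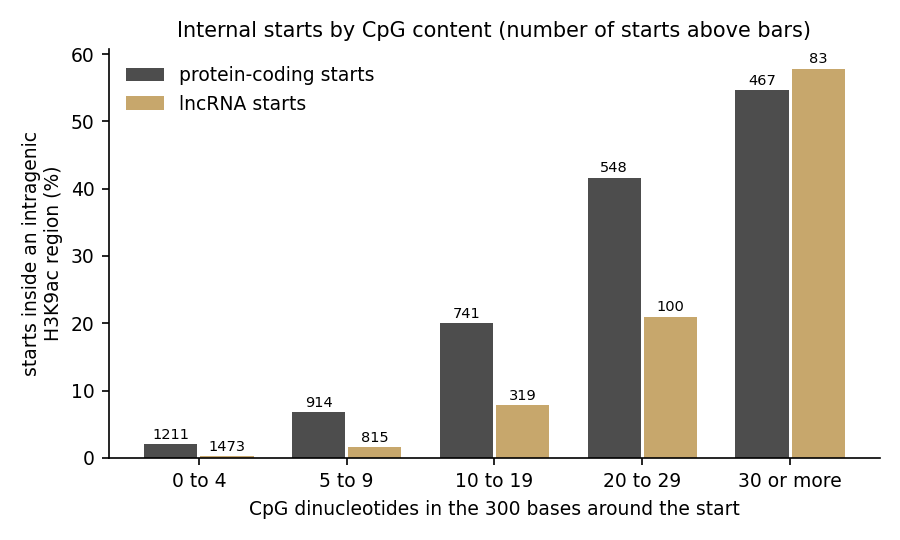
Share of internal transcription starts (y axis, percent) that lay in an intragenic H3K9ac region, by the number of CpGs in the 300 bases around the start (x axis); dark bars are starts of protein-coding genes, light bars lncRNA starts, and the number above a bar counts its starts. In both kinds the share is lowest at 0 to 4 CpGs (1.98% and 0.272%) and highest at 30 or more (54.6% and 57.8%).

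The shares of starts with a promoter motif are given beside base composition, which was not matched between the sets. The GC box, the site of SP-family factors, was searched as GGGCGG or its reverse complement CCGCCC and itself contains a CpG. It was present in 73.4% of the 717 starts inside a region, in 22.9% of internal starts with no peak, in 76.1% of gene-end starts inside gene-end regions and in 35.9% of all promoters. The TATA box, searched as TATAAA or TTTATA, was present in 4.74% of starts inside a region and 14.2% of internal starts with no peak. It was present in 4.72% of gene-end starts inside gene-end regions and 13.7% of all promoters. The palindromic cAMP response element TGACGTCA, which also contains a CpG, was present in 1.81% of starts inside a region and 1.22% of internal starts with no peak. It was present in 3.70% of gene-end starts inside gene-end regions and 1.80% of all promoters. Of internal starts in regions of 1 or 2 long lists, 57.8% had the GC box, 3.97% the TATA box and 2.89% the cAMP response element. A match of letters is a description of these windows only.

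Peaks over internal starts reached farther downstream than upstream, as they did over starts inside gene-end regions. Among 408 regions with a single annotated start inside them, the start base itself was under a peak in 96.3% and 90.7% in knock-in replicates 1 and 2, and in 86.5% and 75.7% in wild type replicates 1 and 2. On average 864 and 828 bp of the 1 kb downstream were covered in the knock-in lists, and 801 and 657 bp in the wild type lists. Upstream the covered length was 497 and 432 bp in knock-in, and 396 and 312 bp in wild type. In all 4 long lists the downstream side was the longer, by 367 and 396 bp in knock-in and by 405 and 345 bp in wild type. The mean excess was 378 ± 27.6 bp (SD, n = 4) at internal starts and 385 ± 8.28 bp (SD, n = 4) at 3127 starts inside gene-end regions. Those starts were not required to lie in a gene-end window themselves, so some may be internal. These lists also chose the regions, and an intragenic region may not reach the window at a gene end, so no test is given.

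**Figure D2:**
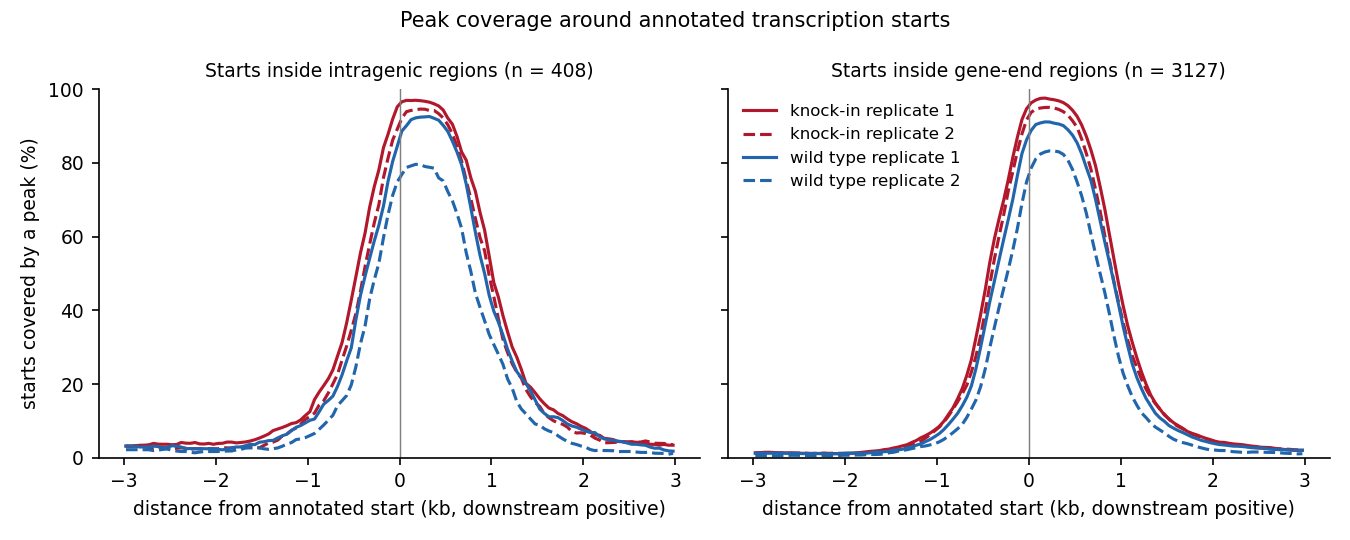
Percent of annotated starts whose surroundings were under a peak (y axis) by distance from the start in kb (x axis, downstream positive), for 408 starts inside intragenic regions (left) and 3127 starts inside gene-end regions (right); red lines are knock-in and blue lines wild type long lists, solid for replicate 1 and dashed for replicate 2. Every curve peaks 175 to 325 bp downstream of the start, and wild type replicate 2 is the lowest throughout the peak.

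Coverage on both sides was higher in knock-in than in wild type by about the same length. The difference was 117 bp downstream and 110 bp upstream, given with no test. Wild type replicate 2, whose long list was the shortest, had the lowest coverage on either side, and it was the missing list in 251 of the 445 intragenic regions found in 3 long lists.

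Regions over a start and regions without one differed in several measures. In 4 long lists were 78.4% of the 592 over a start and 44.2% of the 405 without one. Their median merged widths were 1775.5 and 1475 bp. The median covered length, the base pairs of a region under a library's own peaks, was 1544 and 1505 bp over a start in the knock-in long lists, against 1197 and 1125 bp without one. In wild type replicates 1 and 2 it was 1420 and 1253 bp over a start, against 1174 and 1014 bp without one. Peaks of regions over a start also scored higher within the long lists. Their median percentile by the authors' score was 69.8 and 70.9 in the knock-in long lists and 70.8 and 63.3 in the wild type ones. For regions without a start it was 39.1 and 44.7 in knock-in lists and 50.9 and 38.8 in wild type lists, and for gene-end regions 67.6 and 69.2 in knock-in lists and 69.6 and 60.3 in wild type lists. All of these values come from the lists that chose the regions, and no test is given. In the short lists the order of the score percentiles was not uniform. Over and without a start the medians were 67.0 and 53.0 in knock-in replicate 3, and 58.7 and 53.9 in wild type replicate 3. In knock-in replicate 4 they were 44.2 and 57.2, and in wild type replicate 4 56.9 and 62.8.

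Position in the gene differed between the classes too, with overlapping quartiles. From the start of the host gene the regions lay at a median of 12.4 kb. Regions over an internal start lay at 7.85 kb (quartiles 3.49 to 26.7) and regions without one at 27.4 kb (7.60 to 104). Their host genes also differed in length, with medians of 61.2 kb over a start and 94.3 kb without one. Within 5 kb of the gene start were 225 (38%) of those over a start and 68 (16.8%) of those without one. Of the 997 regions with a known strand, 700 (70.2%) lay nearer the start of the gene than its end, a share of 80.7% over a start and 54.8% without one. The region nearest to a gene end began 1004 bp from it, and 195 regions (15.8%) had an edge within 2 kb of a gene end, just outside the window that the choice of regions used.

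The short lists, which the choice of regions did not use, found 487 of the 1233 regions again (39.5%). Knock-in replicate 3 had a peak in 361 regions (29.3%, exact 95% interval 26.7 to 31.9) and knock-in replicate 4 in 72 (5.84%, 4.60 to 7.30). In wild type replicate 3 it was present in 245 (19.9%, 17.7 to 22.2) and in wild type replicate 4 in 97 (7.87%, 6.43 to 9.51). These intervals cover counting error only. The replicate 3 lists of both genotypes thus held several times more of the regions than the replicate 4 lists, and the genotypes overlapped. The mean share was 17.6 ± 16.6% in knock-in, against 13.9 ± 8.49% for wild type (SD, n = 2 each), a difference of 3.69 percentage points (two-sided exact permutation p = 1, smallest possible 0.333). The sign of this difference depended on single libraries: it was -8.03 percentage points when knock-in replicate 3 was left out and -2.31 when wild type replicate 4 was.

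Per Mb, short-list peaks were denser in the intragenic regions than in other gene body away from gene ends, but more of them lay in the latter. Knock-in replicates 3 and 4 had 525 and 89 peaks in the regions, against 983 and 293 in the other gene body. Wild type replicates 3 and 4 had 325 and 112, against 636 and 366. Knock-in replicates 3 and 4 had 230 and 39.0 peaks per Mb in the 2.28 Mb of the regions, against 0.999 and 0.298 per Mb in the other 984 Mb of gene body away from gene ends. Wild type replicates 3 and 4 had 142 and 49.1 per Mb in the regions, against 0.646 and 0.372 in the rest. The ratio was 230 and 131 in knock-in lists and 220 and 132 in wild type lists. The mean log2 ratio was 7.43 (two-sided exact sign-flip permutation p = 1/8, the smallest that 4 values allow). The regions are shared peaks of the same mark set against all other gene body. A ratio above 1 therefore follows from how they were chosen, and the test shows nothing particular to them. No such ratio is given for gene-end or outside regions.

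Detection in the short lists was compared with that of gene-end regions, whose median width of 1706 bp was close to the 1670 bp of the intragenic ones. In knock-in replicate 3 the intragenic share of 29.3% lay below the 35.5% of gene-end regions (interval 34.2 to 36.7), and in knock-in replicate 4 the 5.84% lay above 3.25% (2.81 to 3.73). In wild type replicate 3 both were close, 19.9% and 19.2% (18.2 to 20.2), and in wild type replicate 4 the 7.87% lay above 5.39% (4.82 to 6.00). The mean difference was -0.109 percentage points (two-sided exact sign-flip permutation p = 1, smallest possible 1/8), and it was 1.92 points without knock-in replicate 3 and 0.506 with gene-end windows of 3 kb.

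How often a short list held a region depended on how many long lists did. Of intragenic regions in 4 long lists, 49.9% had a peak in at least 1 short list, against 21.1% of those in 3, 19.8% of those in 2 and 9.31% of those in 1. For gene-end regions these shares were 51.7%, 9.12%, 4.43% and 1.81%. At 1, 2 and 3 long lists the shares were higher inside genes than at gene ends, and at 4 long lists they were close. Outside genes the shares were 34.5%, 33.6%, 34.8% and 14.8%.

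**Figure D3:**
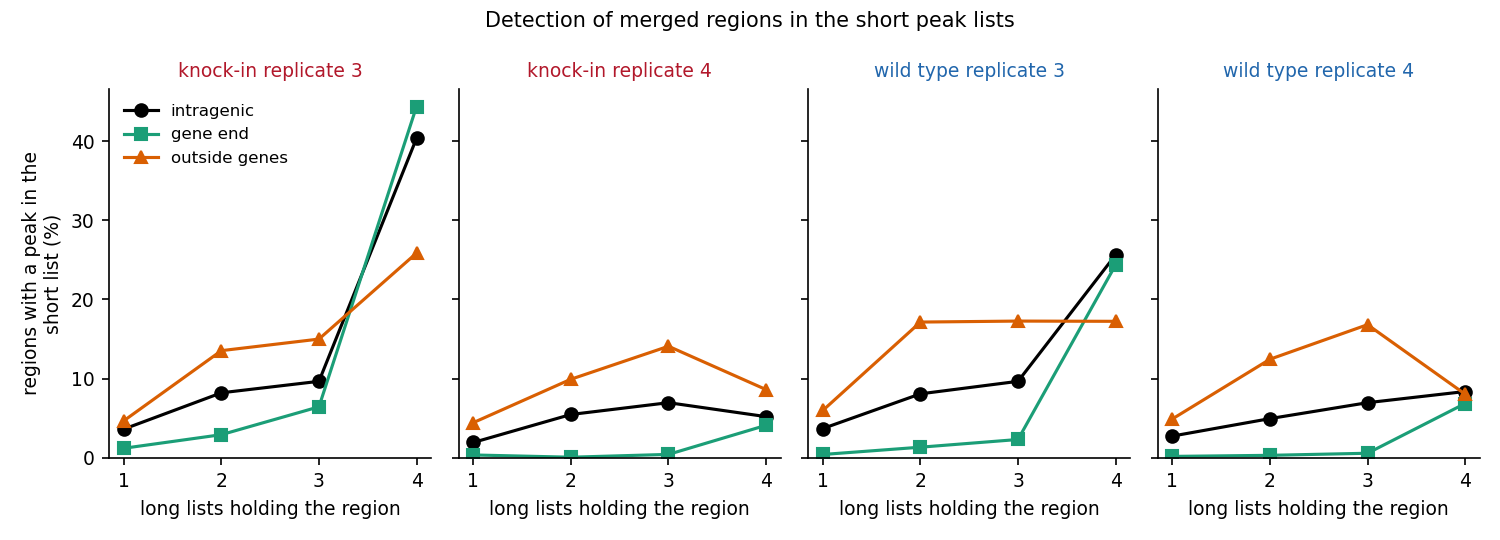
Percent of merged regions with a peak in each short list (y axis; 1 panel per list, knock-in replicates 3 and 4 and wild type replicates 3 and 4) by the number of long lists that held the region (x axis), for intragenic, gene-end and outside regions. In both replicate 3 lists the intragenic and gene-end shares are highest at 4 long lists, and in both replicate 4 lists it is the outside regions in 3 long lists that have the highest share (14.1% in knock-in replicate 4, 16.8% in wild type replicate 4).

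Over a start, 35.6% of regions had a peak in knock-in replicate 3 and 3.21% in knock-in replicate 4, against 21.0% and 10.4% of regions without a start. In wild type replicates 3 and 4 the shares were 19.8% and 6.59% over a start, against 18% and 9.38% without one. The sign differed between replicate 3 and replicate 4 in both genotypes. The mean difference was 1.61 percentage points (two-sided exact sign-flip permutation p = 0.875, smallest possible 1/8), and -2.74 without knock-in replicate 3. Width moved with it. Among regions of 1 to 1.5 kb, 13.8% of those over a start and 35.3% of those without one had a peak in any short list, and among regions of 2 to 3 kb the shares were 53.6% and 38.1%.

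By region, 16 of the 1233 were found in all 8 libraries, 36 in 7, 134 in 6, 241 in 5, 455 in 4 and 351 in 3. A peak in all 4 short lists was found in 21 regions. Those with the greatest covered length included regions in Ubtf, Arid1a, Cpeb2, Ywhaz, Kcnk10, Hhat, Mcl1, Slc39a10 and Tlcd4. Ubtf encodes an RNA polymerase I transcription factor, and its region (chr11:102316247-102320721) spanned 5 internal starts. It was covered over 3880, 4475, 1692 and 278 bp in knock-in replicates 1 to 4 and over 3934, 3758, 977 and 358 bp in wild type replicates 1 to 4. The Cpeb2 region (chr5:43232289-43235991), in a gene for an RNA-binding regulator of translation, covered the start of the lncRNA gene Gm7854. It was covered over 3378, 3703, 2074 and 349 bp in knock-in and 2973, 2974, 1531 and 324 bp in wild type. In both regions replicate 4 had the shortest coverage within each genotype. In Ubtf the long lists of the genotypes overlapped, whereas in Cpeb2 both knock-in long lists were above both wild type ones (log2 difference 0.03 after centring, SE 0.23; limma adjusted p = 0.994).

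Arid1a encodes a DNA-binding subunit of the BAF chromatin remodeller, and its region (chr4:133751612-133755212) was covered over 3353, 3305, 1395 and 408 bp in knock-in and 3052, 2511, 984 and 146 bp in wild type. Ywhaz, which encodes the 14-3-3 zeta adaptor, had 2726, 2544, 892 and 356 bp in knock-in and 3000, 1958, 510 and 397 bp in wild type (chr15:36792158-36795157). Both regions ranked high in the long lists by score. The Arid1a peak ranked at the 99.9, 99.9, 99.1 and 67.3 percentile in knock-in replicates 1 to 4 and at 99.9, 99.9, 97.6 and 66.7 in wild type. Kcnk10, a background potassium channel, had 3045, 1850, 687 and 186 bp in knock-in and 2901, 1630, 593 and 224 bp in wild type (chr12:98572845-98576099).

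Hhat, the acyltransferase that lipidates Hedgehog proteins, had a region with no start of the table under it (chr1:192669489-192671572). Its coverage was 1891, 2007, 183 and 432 bp in knock-in and 2053, 1984, 725 and 140 bp in wild type. Its score percentiles were 26, 61.3, 17.6 and 82.5 in knock-in lists and 78, 28.2, 92.8 and 62.8 in wild type lists, lower than those of Arid1a in all 4 long lists. Mcl1, an inhibitor of apoptosis, had 2111, 2048, 690 and 117 bp in knock-in and 1463, 1757, 216 and 210 bp in wild type (chr3:95658092-95660336). Slc39a10, a zinc transporter, and Tlcd4 were covered over 1144 to 1729 bp in the long lists and 116 to 758 bp in the short lists.

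Nrxn2, a presynaptic adhesion molecule, held the widest region of all, 8664 bp across (chr19:6496240-6504903). Coverage there was 7810, 6145, 392 and 0 bp in knock-in and 6504, 6182, 235 and 0 bp in wild type. In Nfix, a transcription factor of granule neuron maturation, a region of 6746 bp (chr8:84768440-84775185) was covered over 5600, 6171, 129 and 0 bp in knock-in and 5680, 3957, 150 and 0 bp in wild type. Srcin1, an adaptor of Src kinase, Tspoap1, a presynaptic RIM-binding protein, Ptch1, the Hedgehog receptor, and Speg followed. Ptch1 was covered over 4313, 3953, 793 and 0 bp in knock-in and 4445, 4007, 591 and 478 bp in wild type (chr13:63562465-63566909). Knock-in replicate 4 had a peak in 0 of these 6 regions, against 5.84% of all 1233, and wild type replicate 4 in 2 of them, Ptch1 and Speg, against 7.87%.

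Atxn7 itself held 1 intragenic region (chr14:14011820-14013965), 51.6 kb from the gene's start and over the internal start printed above. It was covered over 1356, 1554, 143 and 0 bp in knock-in replicates 1 to 4, and over 2146, 1492, 149 and 0 bp in wild type replicates 1 to 4. Wild type replicate 1 was the highest, and the other 3 long lists lay between 1356 and 1554 bp, so the genotypes overlapped. The log2 difference, knock-in minus wild type, was -0.52 (SE 0.24; limma adjusted p = 0.880).

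No intragenic region was called as different in covered length between the genotypes. All 5465 merged regions that the 4 long lists shared, whatever their class, entered 1 limma fit of log2 covered length with each library centred on its median, and 788 of them were intragenic. At an adjusted p under 0.05, 0 of the 788 were called, as were 0 of all 5465 (0.0%). At an unadjusted p under 0.05, 41 of the 788 (5.20%) passed, 25 higher and 16 lower in knock-in, against 5.73% of all 5465. This split depended on the scaling and on single libraries: it was 54 higher and 1 lower with no centring, and 18 higher and 23 lower without knock-in replicate 2. After centring, both knock-in libraries lay above both wild type libraries in 107 of the 788 (13.6%), against 15.8% of all regions. They lay below them in 157 (19.9%), against 19.5%. The shares of intragenic regions were thus near or below those of all regions shared by the lists. With no centring the median log2 difference was 0.18 in the intragenic regions and 0.20 in all, and after centring it was -0.04 and -0.02. Before centring the median covered length of intragenic peaks was 1379.5 ± 37.5 bp in knock-in and 1235.75 ± 115 bp in wild type (SD, n = 2 each; exact permutation p = 0.333, the smallest possible). The difference of 143.75 bp was 62.5 bp without wild type replicate 2 and 225 bp without wild type replicate 1.

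None of the regions with the smallest p passed the adjustment. The region of Myt1l, a transcription factor of neuronal identity, spanned 4 internal starts (chr12:29532354-29535877) and was covered over 3302 and 2700 bp in the knock-in long lists, against 872 and 1144 bp in wild type. Its log2 difference was 1.36 (SE 0.27; limma adjusted p = 0.759). A region shared by Schip1 and the readthrough gene Iqschfp had 2442 and 2934 bp in knock-in and 968 and 853 bp in wild type (chr3:68572427-68575539), a log2 difference of 1.34 at the same adjusted p by limma. Rfx1, a transcription factor, had 2229 and 1814 bp in knock-in and 843 and 567 bp in wild type (chr8:84065749-84068550), a log2 difference of 1.32, also at 0.759. In all 3 the lowest knock-in library was above the highest wild type library, and the short lists of both genotypes had no peak. Bbc3, which promotes apoptosis, and Hnrnph1, a splicing regulator, followed with log2 differences of 1.15 and 0.95.

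In the other direction Akap7, an anchor of protein kinase A, had 722 and 755 bp in knock-in and 1427 and 863 bp in wild type (chr10:25296499-25297925). Its log2 difference was -0.81 (SE 0.25; limma adjusted p = 0.863). Specc1, Taok3, Mettl9 and Aff1 had log2 differences of -0.79, -0.66, -0.65 and -0.59 at the same adjusted p by limma. Taok3, a protein kinase, had 1812 and 1981 bp in knock-in and 2617 and 2534 bp in wild type (chr5:117240170-117242786). Here knock-in replicate 3 had a peak of 319 bp, while both wild type short lists had none.

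**Figure D4:**
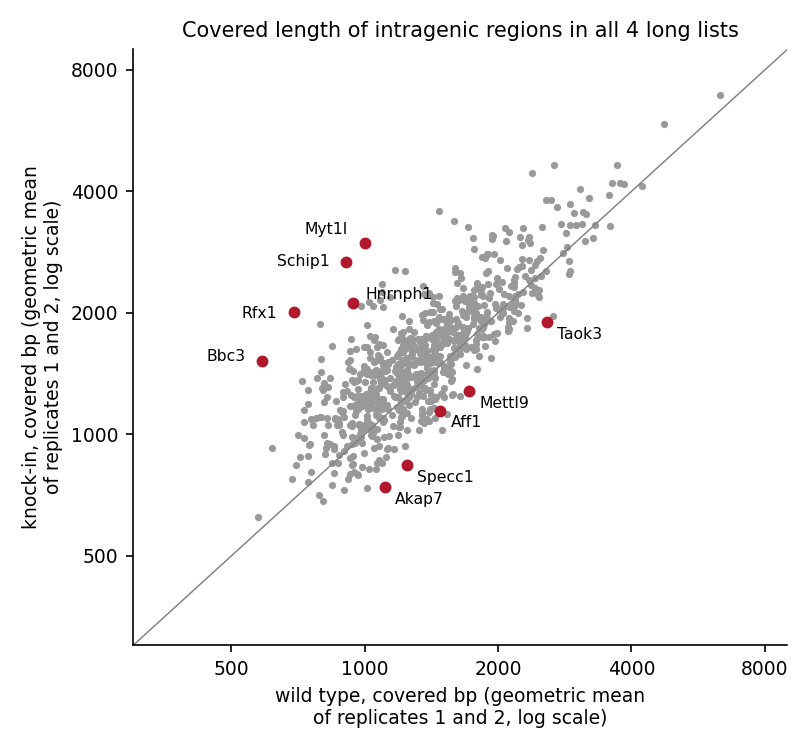
Covered length of the 788 intragenic regions found in all 4 long lists, knock-in (y axis, bp) against wild type (x axis, bp), each the geometric mean of replicates 1 and 2 on a log scale; the line marks equal length and red points are the 5 regions with the smallest p in each direction. Most points lie above the line, as the median log2 difference of 0.18 before centring says, and none of the named regions passed the adjustment (lowest adjusted p by limma 0.759).

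The 1233 regions lay in 1116 host genes. Of these genes 1001 held 1 region, 86 held 2, 22 held 3, 5 held 4 and 2 held 5. Host genes were long, with a median of 66.5 kb against 17.3 kb for all 21631 protein-coding genes. The share of genes that were hosts was 0.723% below 10 kb, 4.49% at 10 to 50 kb, 9.51% at 50 to 100 kb and 17.3% at 100 kb or more. A long gene has more body outside the gene-end windows, so length is part of the choice of regions, and list shares are also given for genes of 50 kb or more, of which 13.3% were hosts.

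Tcf4, a basic helix-loop-helix factor of neural development, and Zmiz1, a transcriptional coactivator, held 5 regions each. Ablim1, an actin-binding protein, Gas7, Gramd1b, Grm4 and Prkag2 held 4 each, and Camta1, a calmodulin-binding transcription activator, was first by the alphabet of those with 3. Grm4 encodes the metabotropic glutamate receptor of granule cell axon terminals. Its largest region (chr17:27500104-27504388) was covered over 3445, 3680, 0 and 0 bp in knock-in replicates 1 to 4 and over 3326, 2910, 131 and 0 bp in wild type. The largest Tcf4 region (chr18:69345182-69349916) was covered over 4102, 3756, 365 and 0 bp in knock-in and 3621, 3488, 0 and 0 bp in wild type. In Zmiz1 none of the 5 regions covered a start in the table, and each was covered over at most 2079 bp in any library.

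Of the 16 lists, granule cell markers had the highest share of hosts, with 12 of 24 (50%), and 9 of the 11 of 50 kb or more. Nfia, Nfix and Chn2 held 3 regions each, and Pax6, Zic4, Fat2 and Tiam1 held 2. Nfia and Nfix are nuclear factor I proteins, and Pax6 and Zic4 are factors of granule cell precursors. The strongest Nfia region (chr4:97776713-97779394) was covered over 2403, 2682, 938 and 0 bp in knock-in replicates 1 to 4 and over 1808, 2000, 155 and 254 bp in wild type. It covered no start in the table, although its score percentiles were 99.5 and 99.1 in the knock-in long lists and 99 and 99.4 in the wild type ones. Purkinje cell markers were hosts in 3 of 27 (11.1%) and in 1 of the 13 of 50 kb or more (7.69%, against 13.3% of all genes of that length), among them Rgs8 and Rora with 1 region each. Rora encodes a nuclear receptor needed for Purkinje cell survival.

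Of all protein-coding genes 5.16% were hosts. Of 17 astrocyte and Bergmann glia markers 1 (5.88%) was a host, Slc4a4, a bicarbonate cotransporter. None of 15 interneuron markers, 18 oligodendrocyte lineage markers, 19 microglia and vascular markers or 20 photoreceptor, liver and muscle genes was, and these lists are small. Peaks anywhere over the gene were also counted, as a description only. The lists were chosen with earlier results known, and no share over all genes was counted. Gene length differed too, with medians of 27.6 kb for granule markers, 44.7 kb for Purkinje markers and 13.6 kb for photoreceptor, liver and muscle genes. All 24 granule markers had a peak somewhere over the gene in both knock-in long lists, and 24 and 23 had one in the wild type long lists. The short lists counted 18 and 3 for knock-in, with 8 and 6 for wild type. Purkinje markers had 14, 15, 8 and 3 of 27 in knock-in lists, with 13, 13, 7 and 2 in wild type. Photoreceptor, liver and muscle genes had 3, 2, 0 and 0 of 20 in knock-in lists, with 2, 0, 0 and 0 in wild type.

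**Figure D5:**
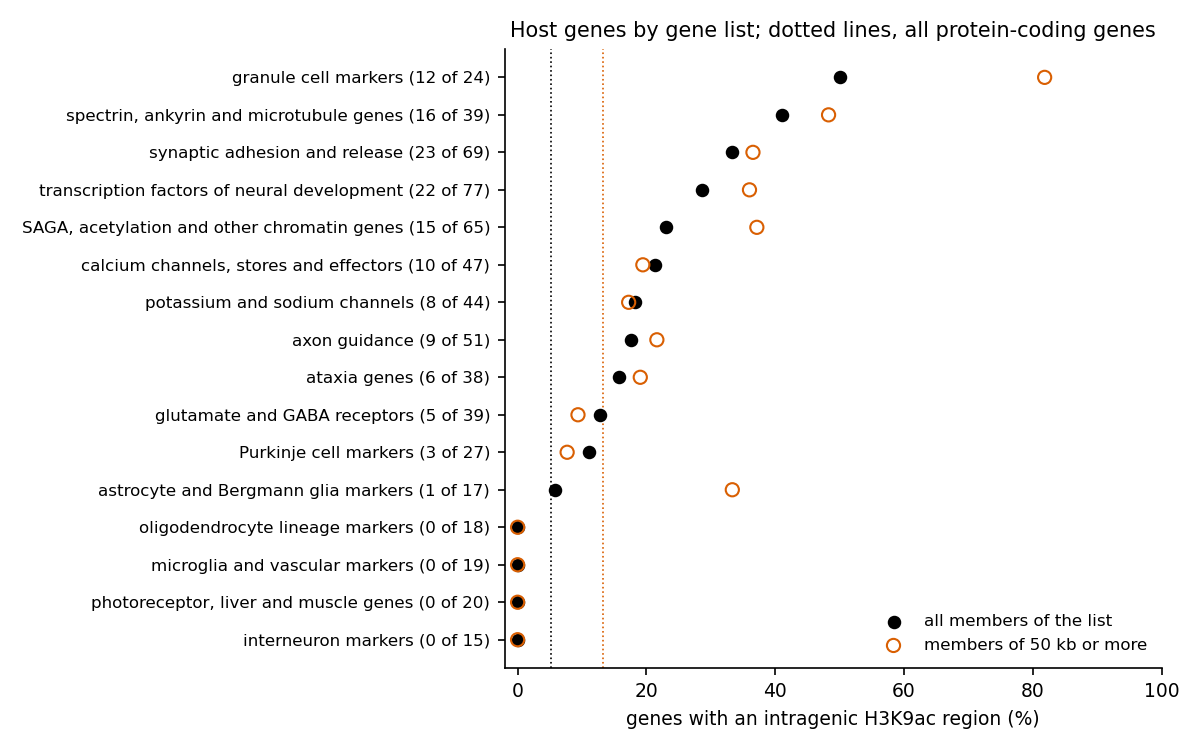
Percent of genes of each list that held an intragenic region (x axis), for all genes of the list (filled) and for those of 50 kb or more (open); list sizes and host counts stand beside the names, and dotted lines mark all protein-coding genes (5.16%) and those of 50 kb or more (13.3%). Granule cell markers stand farthest to the right on both scales (50% and 81.8%), and 4 lists have no host.

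Among functional lists, genes of the spectrin, ankyrin and microtubule scaffold were hosts in 16 of 39 (41.0%; 14 of 29 at 50 kb or more). Ank1, Macf1 and Ank2 held 2 regions each. Genes of synaptic adhesion and release followed with 23 of 69 (33.3%; 19 of 52), among them Nrxn2, the postsynaptic scaffold gene Shank3 and the active zone gene Bsn with 2 regions each. Transcription factors of neural development had 22 of 77 (28.6%; 18 of 50), and genes of SAGA, acetylation and other chromatin functions 15 of 65 (23.1%; 13 of 35). The chromatin hosts were led by Kdm6b, a demethylase of lysine 27 of histone H3, with 2 regions, followed by Arid1a, the acetyl-lysine reader Brd3 and Atxn7. The Brd3 region (chr2:27474472-27477304) was covered over 2263, 2210, 0 and 285 bp in knock-in and 1716, 1141, 197 and 160 bp in wild type.

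Signalling lists had lower shares. Calcium channels, stores and effectors had 10 of 47 (21.3%; 7 of 36 at 50 kb or more), potassium and sodium channels 8 of 44 (18.2%; 5 of 29), axon guidance genes 9 of 51 (17.6%; 8 of 37) and ataxia genes 6 of 38 (15.8%; 4 of 21). Glutamate and GABA receptors had 5 of 39 (12.8%; 3 of 32), below the 13.3% of all genes of 50 kb or more when restricted to that length (9.38%). The ataxia genes included Cacna1a, Atxn7, Dab1, Fgf12 and Atn1. Cacna1a, the pore of the P/Q-type calcium channel, was covered over 2727, 3495, 779 and 0 bp in knock-in and 2047, 2446, 504 and 188 bp in wild type (chr8:84413857-84417359).

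Cacna1c, the pore of an L-type calcium channel, shows both kinds of region in 1 gene. Over the internal start with 57 CpGs the region (chr6:119106455-119109469) had 3005, 2425, 394 and 0 bp in knock-in and 1948, 2104, 0 and 0 bp in wild type. The other (chr6:118809529-118810847) covered no start and had 1292, 658, 0 and 0 bp in knock-in and 984, 1277, 0 and 0 bp in wild type. Its score percentiles were 16.2 and 30.3 in the knock-in long lists and 37.6 and 0.31 in the wild type ones. The region over the start had 97.9 and 92.1 in knock-in, with 93.7 and 91.7 in wild type. In Dab1, the intracellular adaptor of reelin signalling, the region over an internal start with 46 CpGs lay 749 kb from the gene's start (chr4:104366617-104369699). Coverage was 2063, 1836, 327 and 0 bp in knock-in and 2953, 1523, 185 and 0 bp in wild type.

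Several regions held a start of the host gene and, on the other strand, one of a lncRNA gene. Tlk2, a kinase of chromatin assembly, shared its region (chr11:105180247-105183113) with 1700052K11Rik and was covered over 2730, 2350, 775 and 0 bp in knock-in and 2609, 2512, 398 and 0 bp in wild type. Qser1 shared a region with 2310047K21Rik, Arhgef2 with Gm20652, Usp2 with Gm39325 and Gse1 with 1700016A09Rik. In Unc45b the region (chr11:82930114-82933641) covered the start of the lncRNA Unc45bos only, and was covered over 3265, 3328, 606 and 141 bp in knock-in and 3371, 2653, 256 and 0 bp in wild type. Peaks carry no strand, so the transcript to which the acetylation belongs cannot be told from them.

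In all, 4 miRNA genes lay in intragenic regions, and the mature sequences of 3 were in the RefSeq miRNA table. They are printed with the seed, bases 2 to 8, in capitals, because each hairpin lay wholly inside an acetylated region.
mmu-miR-1895: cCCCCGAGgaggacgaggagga
mmu-miR-7687-5p: aGGCGGGGaaccugaggcgcaggcu
mmu-miR-7687-3p: cCACUCAGucgccccgccaca
mmu-miR-1904: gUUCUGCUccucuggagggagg

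No 2 of these shared a seed. The mmu-miR-1895 hairpin (chr3:134240505-134240583) lay in a region of Cxxc4 with 1968, 2504, 0 and 0 bp in knock-in and 1910, 1753, 0 and 0 bp in wild type. The mmu-miR-7687 hairpin (chr8:120538696-120538754) lay in the region that Gse1 shared with 1700016A09Rik. This region was covered over 3998, 4135, 148 and 0 bp in knock-in and 3354, 2797, 119 and 0 bp in wild type. The mmu-miR-1904 hairpin (chr13:109903809-109903888) lay in a region of Pde4d, a cAMP phosphodiesterase, with 1987, 1680, 129 and 0 bp in knock-in and 1556, 1390, 359 and 147 bp in wild type. The peaks say nothing of whether the miRNAs were made.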

How the data were processed

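The deposited file of each of the 8 libraries was a list of H3K9ac peaks with start, end and the authors' score per peak. The build was mm10 and the aligner Bowtie2, per the submitters' processing notes. Per the file headers, peaks were called with MACS in Galaxy, 1 list per library. Its version, its settings and any input control were not given in the sources used here. Because no source states the scale of the deposited score, it served only for ranks inside 1 list. A longer list can come from deeper sequencing or a stronger precipitation, so covered lengths do not share a scale across libraries. Read depth is unknown, and exact Clopper-Pearson 95% intervals cover counting error only. Of all 52676 peaks, 15 started below 0 and were set to 0.

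Regions were built and classified as the opening describes, with Python 3.11.15 (pandas 2.3.3, numpy 2.4.6), with gene positions from RefSeq (GRCm38.p6, which is mm10). The table gives the ends of each gene, and strand was known from the promoter table for 17274 of 21631 protein-coding genes. A start is internal when it lies in a protein-coding gene body outside all gene-end windows. No exon annotation was used, so regions were not divided into exonic and intronic. The members and the 16 gene lists (567 of 568 genes matched) were chosen with earlier results of these data known.

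Library values were compared by two-sided exact permutation tests (scipy 1.17.1). Covered length, log2 of base pairs per region, was fitted with limma 3.58.1 in R 4.3.3 over the 5465 regions in all 4 long lists, adjusted by Benjamini-Hochberg with a threshold of 0.05, after the script was tested on simulated data. The text names regions found in the most libraries (at most 10), the 8 genes with the most regions, the 6 widest regions by median covered length, the 5 smallest p in each direction, up to 3 hosts per gene list, and up to 8 regions over a non-coding start or miRNA. Some genes that this rule gives are not reported here. Any other name was chosen after its values were seen. Alternatives changed the window, the number of lists, the overlap, the gene-end set, the lowest-scoring peaks, the centring, the limma prior, the replicate block and single libraries.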

Additional observations from a re-analysis of the deposited data

How the results depend on the processing

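The number of intragenic regions was 788 when all 4 long lists had to hold a region, against 1233 for 3 or 4. The share over an annotated start was 54.9% with gene-end windows of 3 kb, 72.2% for regions in all 4 lists and 68.3% without the lowest-scoring 25% of each list, against 59.4%. The difference between intragenic and gene-end regions in the short lists changed sign to 0.506 percentage points with windows of 3 kb, and ranged from -1.01 to 1.92 with single libraries left out. The genotype difference in the share found again ranged from -8.03 to 15.4 percentage points with single libraries left out, and the difference between regions over and without a start from -2.74 to 4.53. With windows of 3 kb the difference between regions over and without a start was 0.000367 percentage points, against 1.61. The cause of these changes was not tested.

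The limma count of regions with a genotype difference was 1 with the replicate block, 1 with a prior trend on width, and 0 to 1 with single libraries left out, against 0, and in none of these settings was a called region intragenic. The replicate numbers were not shown to pair the libraries: the correlation of the deviations of replicate 1 between genotypes was -0.0262 over 5465 regions. All other combinations of result and setting were 56 in number. Those with a direction or a threshold kept it, and so did all 85 for named regions. Region counts and the share over a start have neither, and sizes could change within a direction. Depth is unknown, so absence of a region from a short list does not tell whether acetylation was absent or not detected.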

Other observations

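Of the 16 regions found in all 8 libraries, 6 were not among the 10 named for being found in the most libraries. The Ank1 region was named through its gene list, and the others were looked at after their values were seen. The 6 lay in Mdga2, a regulator of synaptic adhesion, Zc3h7a, Ank1, Spag17, Stx3 and Mamdc2. The Mdga2 region (chr12:67058915-67060279) was covered over 1195, 1329, 852 and 777 bp in knock-in replicates 1 to 4 and over 1267, 1274, 849 and 786 bp in wild type replicates 1 to 4. Its coverage in replicates 3 and 4 was the same in both genotypes to within 9 bp. It covered no start in the table. Its score percentile was 38.6, 99.3, 99.9 and 99.7 in knock-in, with 99.3, 87.4, 99.9 and 99.7 in wild type. The Spag17 region (chr3:99980517-99981670), in a gene of the ciliary axoneme, had percentiles of 5.85, 70.4, 94.4 and 97.6 in knock-in, with 74.2, 44.2, 81 and 93.4 in wild type. One Ank1 region (chr8:23094663-23096411) had 11.1, 62.4, 98.2 and 96.1 in knock-in, with 87.9, 76.9, 99.9 and 99.1 in wild type. These 3 regions ranked higher in both replicate 4 lists than in the long list of replicate 1 of their genotype, as did those of Zc3h7a and Mamdc2. The Stx3 region did so in knock-in (32.2 and 57.2 in replicates 1 and 4) but not in wild type (81.0 and 60.1). The Ubtf region ranked lower in both replicate 4 lists. It had 99.9, 99.98, 99.7 and 35.6 in knock-in, with 99.9, 99.96, 97.2 and 91.98 in wild type.

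Gnas, an imprinted gene for the stimulatory G protein subunit with several promoters, was also looked at after its values were seen. One of its regions (chr2:174327663-174331660) held 3 internal starts with 27, 28 and 40 CpGs. It was covered over 3762, 3962, 321 and 0 bp in knock-in, and over 3833, 2692, 152 and 0 bp in wild type. Another, narrower Gnas region (chr2:174304333-174305089) was in 3 long lists and covered no start in the table. Dnmt3a, a DNA methyltransferase, had 2789, 3031, 274 and 0 bp in knock-in, with 2833, 2895, 147 and 0 bp in wild type over internal starts with 46 and 47 CpGs (chr12:3805668-3808922). A further internal Dnmt3a start with 18 CpGs had no peak in the long lists.

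The X chromosome held 11 intragenic regions among its 279 merged regions, or 3.94%. On the autosomes the share lay between 5.75% on chromosome 6 and 9.06% on chromosome 18.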
